A study of Mus musculus with 46 samples.

Results

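The proteasome and the ubiquitin-conjugating (E2) enzymes are described here in mouse embryos that had lost Rbbp5. Members were taken by name alone: every gene of the deposited expression table whose symbol opens with Psma to Psmg and a digit, or with Ube2 and a letter. This gave 78 of 7182 genes. Of these, 17 encode the core particle (8 Psma, 9 Psmb), 20 the regulatory particle (6 Psmc, 14 Psmd, counting its assembly chaperones Psmd5, Psmd9 and Psmd10), 5 activators (Psme), 1 an inhibitor (Psmf1), 4 core particle assembly chaperones (Psmg) and 31 E2 enzymes (Ube2). RefSeq held 77 of the 78 under the same symbol, the exception being Psme2b-ps. This copy of Psme2 is counted among the 5 activators, though its symbol marks a pseudogene.

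A protein is marked for destruction by a chain of ubiquitin, a small protein that an E1 enzyme activates, an E2 enzyme carries and an E3 ligase attaches to the target. The proteasome is a barrel of alpha (Psma) and beta (Psmb) rings, the core particle, in which the beta rings cut proteins. A regulatory particle caps the barrel. Its base holds a ring of ATPases (Psmc) that unfold the target, and its lid (Psmd subunits) removes the ubiquitin chain. The Psme activators open the barrel without the ATPases, and interferon induces Psme1, Psme2 and the beta subunits Psmb9 and Psmb10 in many tissues. Early embryos replace the egg's proteins with their own, and E2 enzymes such as Ube2c also drive exit from mitosis. Rbbp5 is a core subunit of the complexes that methylate histone H3 at lysine 4.

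The RNA libraries were made with the SMART-seq2 and Tn5 protocols. The groups were 7 wild-type (WT) and 7 Rbbp5 knockout (KO) inner cell masses (ICM) at embryonic day 3.5 (E3.5), 3 WT and 3 KO epiblasts at E5.5, and single cells at E4.5: 7 WT and 3 KO from the epiblast, and 1 WT and 2 KO from the primitive endoderm. The ICM and E5.5 libraries each came from a single embryo, per the labels. Knockouts were made in zygotes, by Cas9 mRNA with an sgRNA in wild-type zygotes or by Cre mRNA in Rbbp5 flox/flox zygotes, and the sources used here do not say which made which library. Embryos grew in KSOM medium to the blastocyst, where the inner tissues were freed by immunosurgery, or were moved at the 2-cell stage into pseudopregnant mice, from which E5.5 epiblasts were dissected by hand. The WT embryos are labelled by genotype only, and no injected control is named. The level of Rbbp5 was not analysed here, and the KO labels were therefore not checked against it.

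Levels are in FPKM, which divides a gene's fragments by its length and by the library's total, so genes can be compared per length. Depth per library is not given by these values. Genes averaging 1 FPKM or more over the libraries compared were tested. Members averaging under 1 FPKM in 1 group passed through the other group alone, so their difference supports no count: Psma8 and Ube2l6 between stages and at E5.5, Psmb9 at E5.5 and Ube2g2 in the ICM. They still stand in the counts below. Changes are differences of log2(FPKM + 1), which understates changes of genes at low FPKM, and a gene was called when limma's p, adjusted by Benjamini-Hochberg over all genes tested, was under 0.05.

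The promoters of 4 regulatory particle genes that were lower in KO ICM are shown first, because a sequence was common among regulatory particle promoters and rare among core particle promoters. Each is the stretch of 120 bases just before a RefSeq start (build GRCm38.p6, plus strand, 5′ to 3′). Capitals mark the letters CTTCCGG, which is CCGGAAG on the opposite strand, the core that ETS-family factors are known to bind. The windows lie at chr16:20651532-20651651 (Psmd2, before a start within the listed gene), chr11:80428495-80428614 (Psmd11), chr11:107479408-107479527 (Psmd12) and chr12:100110082-100110201 (Psmc1).
Psmd2: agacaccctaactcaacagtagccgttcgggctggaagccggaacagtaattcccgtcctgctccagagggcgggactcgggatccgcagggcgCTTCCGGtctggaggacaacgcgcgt
Psmd11: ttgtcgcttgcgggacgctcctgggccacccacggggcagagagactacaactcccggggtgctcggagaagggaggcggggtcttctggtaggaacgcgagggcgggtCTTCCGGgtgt
Psmd12: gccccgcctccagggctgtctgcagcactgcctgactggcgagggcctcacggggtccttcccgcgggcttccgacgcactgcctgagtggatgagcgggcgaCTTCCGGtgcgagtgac
Psmc1: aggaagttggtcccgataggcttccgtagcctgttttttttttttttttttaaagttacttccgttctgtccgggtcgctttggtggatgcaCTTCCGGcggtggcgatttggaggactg

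RefSeq gave a promoter window, 250 bases before to 50 after a start, for 62 of the 78 members. CCGGAAG, on either strand, stood in the windows of 9 of 17 regulatory particle genes (Psmc1, Psmc2, Psmc6, Psmd2, Psmd4, Psmd6, Psmd11, Psmd12, Psmd13), in those of 1 of 13 core particle genes (Psma6) and in those of 7 of 24 E2 genes. It also stood in those of 2 of 4 activator genes (Psme3, Psme4) and 2 of 3 assembly chaperone genes (Psmg1, Psmg3), but not in that of the inhibitor. The motif was thus not particular to the regulatory particle, and no activator or chaperone was called in KO ICM. By window, the shares were 55.6% for the regulatory particle and 7.14% for the core particle, against 8.86% of all 32841 windows and 20.3% of the windows of genes tested in the ICM. Among regulatory particle genes with a window, 7 of 10 lower in KO ICM held it and 2 of 7 not called did. Over all genes, 22.4% of windows of genes lower in KO ICM and 21.5% of those of genes higher held it, so over all genes the shares were close in both directions. The other motifs searched, also on both strands, were the interferon response element (GAAA, any 2 bases, then GAAA), the gamma-activated site TTCNNNGAA, the antioxidant response element TGACNNNGC, the box CCAAT, the cell-cycle element TTTGAA and the NRF1 element (GCGCA, any base, then GCGC). A gamma-activated site with TTT in its middle also holds the cell-cycle element. These 7 motifs were chosen after the values were known, and a match describes letters, not a bound site or a cause.

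The interferon response element is shown for Psme1, an activator called lower in KO E5.5 libraries under every setting run. The 30 bases from its start (chr14:55578494-55578523, GRCm38.p6, plus strand) carry it in capitals, as read on the opposite strand.
Psme1: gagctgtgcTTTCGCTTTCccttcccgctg
Among the members, Psmb3, Psmd4, Psmd9, Psme1 and Psmg4 held this element, which stood in 3.44% of all windows. Of 4 activator genes with a window Psme1 alone held it, and the window of the interferon-induced Psmb9 lacked it. Psmb3, which held it, was called higher in KO E5.5 libraries, a call lost with any 1 library left out.

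The libraries differed in ways that touch the results. Genes at 1 FPKM or more numbered 5110 to 5718 in WT ICM, 3628 to 5136 in KO ICM, 5738 to 5805 in WT E5.5 and 5457 to 5895 in KO E5.5, and KO ICM replicates 1, 4 and 6 had the fewest. Of 13 trophectoderm markers 10 were in the table, and their summed FPKM was 984, 249 and 294 in WT ICM replicates 1, 3 and 4, 48.2 to 83.5 in the other WT ICM and 26.8 to 163 in KO ICM. Of 14 epiblast and ICM markers 11 were in the table, with sums of 252 to 561 in WT ICM, 148 to 553 in KO ICM and 1194 to 1325 in WT E5.5, but 272 to 549 in KO E5.5. The trophectoderm sum of KO E5.5 was 1937 to 3393, against 95.2 to 145 in WT E5.5. Elf5, a marker of extraembryonic ectoderm, was at 30.1 to 33.4 in KO E5.5 and at most 0.0451 in WT, and Pou5f1, a marker of the epiblast, at 4.57 to 19.9 against 103 to 190.35. Nanog, Fgf4, Tdgf1, Otx2 and Utf1 were likewise lower in every KO E5.5 library, and Sox2 and Tbx3 overlapped. Klf2, Klf4 and Esrrb went the other way at low level, with Esrrb at 1.35 to 5.59 in KO and at most 0.0739 in WT. By their marker sums all 3 KO E5.5 libraries thus went against their epiblast label, though not by every marker. In every E5.5 result below knockout and tissue therefore cannot be told apart, and no KO E5.5 library is without the trophectoderm markers.

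The WT libraries serve in every comparison of their stage, so the comparisons share controls and are given side by side. WT embryos were compared first, to show how the genes differed between the ICM and the E5.5 epiblast. The ICM came from cultured blastocysts by immunosurgery, and the E5.5 epiblasts from embryos in mice by hand dissection. Stage, place of growth and isolation therefore cannot be told apart, and rose and fell below describe E5.5 against ICM only. Most core particle RNAs were lower at E5.5, while all activators and the core subunit Psmb10 were higher. Of 77 members tested, 30 were higher and 27 lower at E5.5 (74.0%), against 56.3% of 6022 genes, of which 37.3% were higher and 18.9% lower. The median change over all genes was 0.43 and moved with scaling, to 0.09 under quantile normalization and 0.10 under median ratio scaling. Under those scalings the members split into 23 higher and 26 lower, and 15 higher and 30 lower. Libraries of the stages did not overlap for 27 members higher and 23 lower, against 33.8% and 15.9% of all genes, 49.7% in all.

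Of 17 core particle genes, 12 were lower and 2 higher, with a median log2 change of -0.73, which is -1.16 relative to the median gene. Psmb3, a beta ring subunit, was among the most abundant members: its WT ICM levels ran from 859 through a median of 1278 to 1499.8 FPKM, and its E5.5 levels were 579, 489 and 539.5. The E5.5 libraries all lay below the lowest ICM (log2 change -1.21, SE 0.16, adjusted p 3.53e-05). Psma5, Psmb1, Psma1 and Psmb4, which build the alpha and beta rings, fell by 1.06, 1.05, 1.02 and 0.98. Psmb6, which carries the caspase-like cutting site, ran from 1042 through 1397 to 1550.1 in the ICM and was at 833, 694 and 818 at E5.5. Psma7, an alpha ring subunit, stood apart with 677, 970.4 and 1068 as lowest, median and highest in the ICM and 1003, 811 and 997 at E5.5 (log2 change -0.00, adjusted p 0.989). The core particle's median stayed below the median gene under every setting run, at -0.57 under quantile normalization.

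The core particle genes called higher, Psmb10 and Psma8, are known for tissue-restricted use. Psmb10, which replaces the trypsin-like subunit Psmb7 in the immunoproteasome (chr8:105935728-105938392), ran from 5.79 through 8.02 to 28.1 in WT ICM and was at 64.4, 44.5 and 59.2 at E5.5, without overlap (log2 change 2.43, SE 0.39, adjusted p 0.000172). Psmb9 was not called, with 0.359 to 15.4 in the ICM and 1.76, 1.75 and 3.81 at E5.5 (adjusted p 0.198). Psma8, known from the testis, was at most 1.30 in the ICM (mean 0.603) and at 2.93, 3.91 and 3.99 at E5.5. It was tested only because of its E5.5 level, and without it 1 core particle gene was higher. All 5 activators rose. Psme2 (chr14:55587440-55591101) and Psme1 (chr14:55578494-55581527), which form a mixed ring and lie close together, changed by 2.82 (SE 0.40, adjusted p 5.73e-05) and 1.16 (adjusted p 0.000231). Psme2 ran from 14.6 through 33.9 to 79.9 in the ICM and was at 227, 198 and 297 at E5.5. Psme4, the large single-chain activator, ran from 5.34 through 8.47 to 13.1 and was at 33.4, 39.3 and 36.7 (log2 change 2.02, adjusted p 4.14e-05). Psme3, found mainly in the nucleus, and Psme2b-ps rose by 1.35 and 2.87. Reads of Psme2b-ps and Psme2 may be split between the copies, so both values are uncertain. None of the 5 activators, the copy Psme2b-ps included, had an E5.5 library within its ICM range.

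Of 20 regulatory particle genes, 9 were higher and 5 lower at E5.5, with a median change of 0.34, which is -0.08 relative to the median gene. Under median ratio scaling 3 were higher and 6 lower. The lid subunits went both ways. Psmd13 ran from 11.3 through 26.1 to 36.8 in the ICM and was at 87.2, 74.7 and 78.6 at E5.5 (log2 change 1.76, adjusted p 0.000362), and Psmd3 from 3.37 through 7.71 to 9.97 and at 30.5, 26.0 and 24.8 (1.86, adjusted p 0.000394). Psmd8 ran from 274 through 344 to 384 and was at 139, 119.8 and 123 (-1.38, SE 0.15, adjusted p 6.75e-06). These genes did not overlap between the stages. The base scaffold Psmd2 and the ATPases Psmc3 and Psmc5 rose by 1.01, 0.999 and 0.98, of which only Psmc5 was still called under median ratio scaling (adjusted p 0.0485). The regulatory particle's median lay 1.08 above the core particle's, and 0.71 to 1.17 above it over 22 settings, some of which cannot change it. In summed FPKM the ratio of Psmc and Psmd to Psma and Psmb genes was 0.261 to 0.439 in WT ICM and 0.580, 0.637 and 0.644 at E5.5, without overlap.

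The assembly chaperones and the inhibitor moved apart. Psmg1 rose by 1.14 (adjusted p 0.000164) while Psmg2, with which it pairs to build the alpha ring, fell by 1.22 (adjusted p 0.000751). Psmg1 ran from 60.8 through 90.9 to 106 in the ICM and was at 208, 180.4 and 199 at E5.5, and Psmg2 ran from 103 through 174 to 261 and was at 79.0, 60.1 and 76.0. Both were without overlap. Psmf1, the inhibitor, fell by 0.89 (adjusted p 0.00413).

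Of 30 E2 genes tested, 13 were higher and 7 lower at E5.5, with a median of 0.43, equal to that of all genes, and the split was 6 and 7 under quantile normalization and 4 and 7 under median ratio scaling. Ube2l6, the interferon-induced E2 for the modifier ISG15 (chr2:84798828-84810003), ran from 5.20 through 9.56 to 20.5 in WT ICM and was at 0.337, 0.222 and 0.0778 at E5.5 (log2 change -3.22, SE 0.38, adjusted p 1.2e-05). It was tested only because of its ICM level, and it went the other way from Psme1, Psme2 and Psmb10, which interferon also induces. Ube2q2 fell by 1.94 (adjusted p 0.000245) and the mitotic Ube2c by 1.31 (adjusted p 0.000262), Ube2c from 445, 622 and 886 as lowest, median and highest to 219, 266 and 245. Ube2r2, a relative of the cullin partner Cdc34, was at 0.761 to 4.67 in the ICM and at 14.2, 12.7 and 15.0 at E5.5 (2.15, adjusted p 0.000159). Ube2d1, a broadly used E2, ran from 3.44 to 12.9 and was at 24.5, 24.0 and 28.2 (1.89, adjusted p 0.000231), and Ube2k, which builds ubiquitin chains, from 34.2 to 65.6 and at 149, 136 and 139 (1.62, adjusted p 3.62e-05). Ube2g2, which acts in the degradation of endoplasmic reticulum proteins, rose by 1.72, but its call was lost in 6 of 21 settings, among them median ratio scaling (adjusted p 0.0509) and leaving out WT E5.5 replicate 1 or 2 (adjusted p up to 0.0752).

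**Figure D1:**
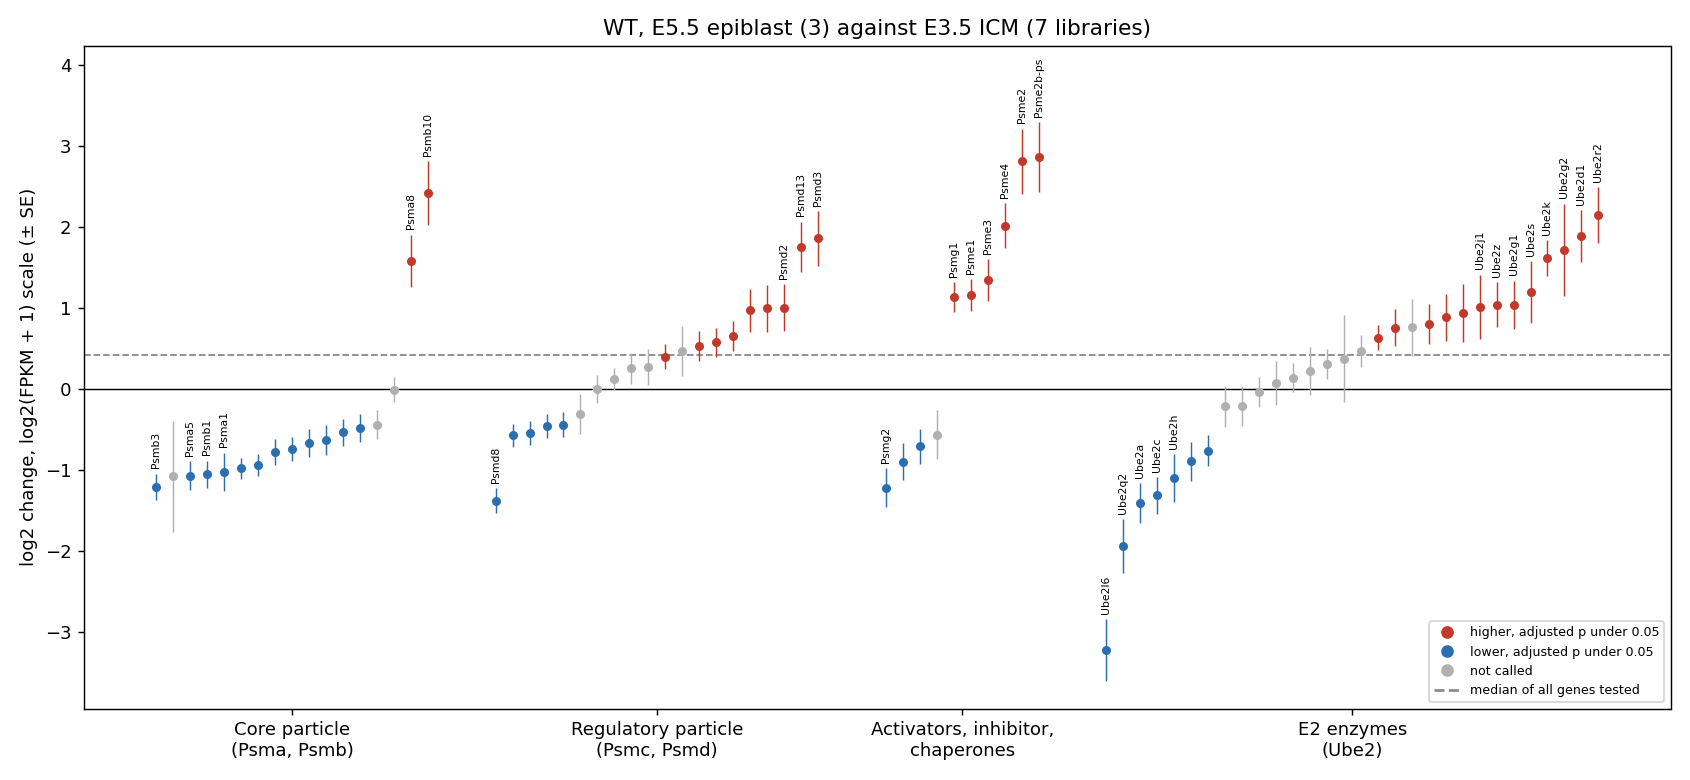
Log2 change from WT ICM (7 libraries) to WT E5.5 epiblast (3 libraries) for the 77 members tested, by functional group, on a scale of differences of log2(FPKM + 1). Points are fitted changes, bars are standard errors, red and blue mark members called higher and lower, and the dashed line is the median of all genes at 0.43. Called members that changed by 1 or more in either direction are labelled. Core particle genes lie mostly below 0 with Psmb10 and Psma8 above, and all 5 activators lie above 0.

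The next comparison asked how the genes differed between KO and WT inner cell masses. Regulatory particle RNA was lower in KO ICM and core particle RNA was not. Of 76 members tested, 6 were higher and 18 lower (31.6%), against 28.3% of 5443 genes, of which 3.44% were higher and 24.9% lower. Of the 20 regulatory particle genes 13 were lower and 0 higher by limma, with 13 at an unadjusted p under 0.05, and of 16 core particle genes 4 were higher and 1 lower. The groups did not overlap for 3 members higher and 5 lower in KO, against 1.29% and 3.33% of all genes, 4.61% in all. In these bulk samples, fewer cells of a type and less RNA per cell cannot be told apart.

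Summed FPKM showed the same division. The 20 regulatory particle genes together ran from 3064.5 through 3588.6 to 4086 in WT ICM and from 1448 through 1933 to 2989.6 in KO ICM, without overlap. The 17 core particle genes ran from 9018 through 11733 to 12015 in WT and from 10506 through 12918 to 15024 in KO, with overlap. The ratio of the regulatory to the core sum was 0.430, 0.291, 0.276, 0.439, 0.261, 0.368 and 0.342 in WT replicates 1 to 7 and 0.149, 0.191, 0.156, 0.125, 0.234, 0.118 and 0.208 in KO replicates 1 to 7. Every KO ICM lay below every WT ICM. The lowest ratios among KO libraries, 0.118, 0.125 and 0.149, were those of replicates 6, 4 and 1, which also had the fewest genes at 1 FPKM, and the part of detected gene number in this ratio was not tested.

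**Figure D2:**
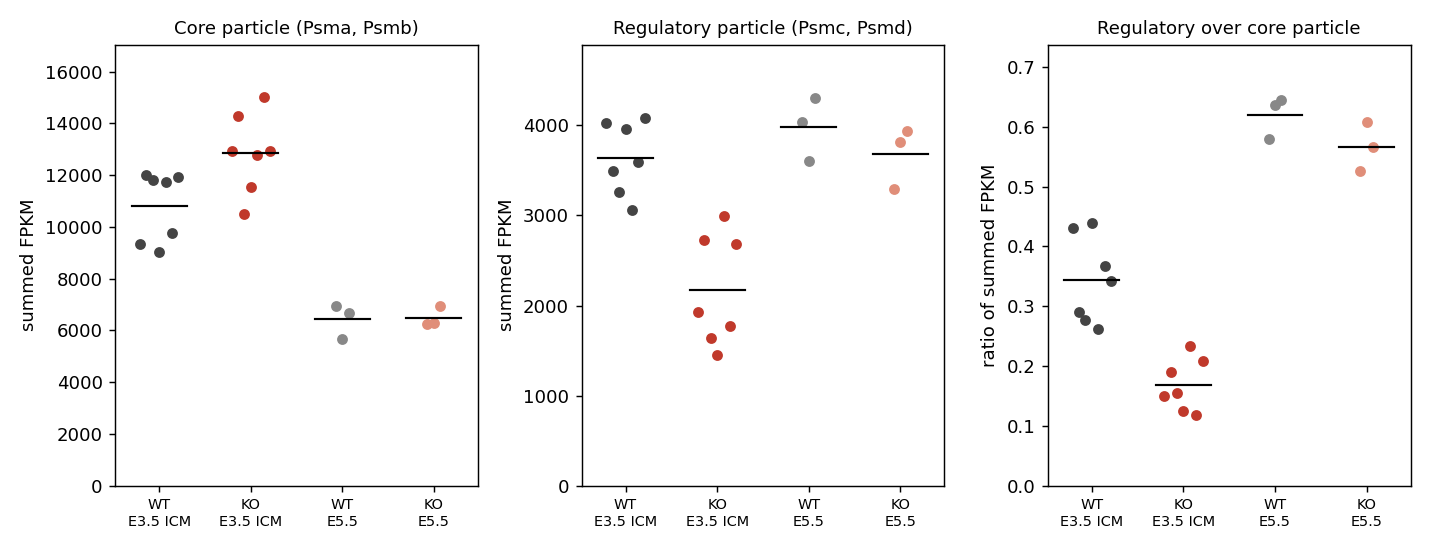
Summed FPKM of the 17 core particle genes, of the 20 regulatory particle genes and the ratio of the second to the first, per library, in WT and KO ICM (7 each) and WT and KO E5.5 libraries (3 each); points are libraries and bars are means. The ratio is 0.261 to 0.439 in WT ICM, 0.118 to 0.234 in KO ICM, and 0.527 to 0.644 in E5.5 libraries.

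Within the regulatory particle, lid and base subunits changed as follows. Psmd2, the base scaffold that receives shuttle proteins (chr16:20651122-20663414), ran from 53.1 through 127 to 164 FPKM in WT ICM and from 9.02 through 22.3 to 61.6 in KO ICM (log2 change -2.13, SE 0.41, adjusted p 0.00298). The highest KO library lay above the lowest WT library. Psmd11, a lid subunit that braces the core particle (chr11:80428615-80473248), ran from 355 through 433 to 476 in WT and from 53.9 through 137 to 279 in KO, without overlap (-1.52, SE 0.29, adjusted p 0.00278). Psmd12, its lid neighbour (chr11:107479528-107498036), ran from 108 through 153 to 193 in WT and from 38.2 through 56.2 to 95.2 in KO, again without overlap (-1.29, SE 0.25, adjusted p 0.00302). Psmd1, the other base scaffold, ran from 83.4 through 123 to 161 and from 14.0 through 57.4 to 103, with overlap (-1.25, SE 0.33, adjusted p 0.0122). Psmd3, a lid subunit at low level, ran from 3.37 through 7.71 to 9.97 in WT and from 0.102 through 0.636 to 9.39 in KO (-1.79, adjusted p 0.0112), with KO replicate 5 alone inside the WT range.

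Of the 6 ATPases, 5 were lower. Psmc4 (chr7:28041702-28050092) ran from 193 through 256 to 288 in WT ICM and from 53.9 through 78.6 to 168 in KO ICM, without overlap (-1.32, SE 0.25, adjusted p 0.003). Psmc5 ran from 119 through 193 to 310.3 and from 44.1 through 77.1 to 125, overlapping slightly (-1.35, SE 0.27, adjusted p 0.00338). Psmc2 and Psmc1 (chr12:100110202-100123364), with WT ranges of 237 to 282 and 198 to 344 and KO ranges of 57.6 to 196 and 85.9 to 195, did not overlap (-1.05, adjusted p 0.00526, and -0.99, adjusted p 0.00451). Psmc6 was the exception, at 170.4, 196 and 230.4 in WT and 144, 205 and 245 in KO as lowest, median and highest (0.00, adjusted p 0.998).

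Not every lid subunit was called. Psmd14, the enzyme that removes ubiquitin chains, ran from 313 through 386 to 425 in WT and from 223 through 304 to 489 in KO (-0.27, adjusted p 0.268). Psmd8 ran from 274 through 344 to 384 and from 232 through 239 to 375 (-0.27, adjusted p 0.228). The sign of both differences turned under median ratio scaling, to 0.29 and 0.30, and with a covariate for detected genes, as did that of Psmd7 with the covariate (0.0203). The ubiquitin receptor Psmd4 and the lid subunits Psmd6 and Psmd7 were lower by smaller amounts, with log2 changes of -0.81, -0.67 and -0.72.

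In the core particle the called genes were mostly higher. Psma2, an alpha ring subunit, ran from 176 through 234 to 286 in WT ICM and from 304 through 346 to 424 in KO ICM, without overlap (0.65, SE 0.16, adjusted p 0.00794). Psmb2, a beta ring subunit without a cutting site, ran from 638 through 944 to 1065 and from 1097 through 1283 to 1838, without overlap (0.59, SE 0.16, adjusted p 0.0146). Psmb1 and Psma3 changed by 0.61 (adjusted p 0.0119) and 0.55 (adjusted p 0.0157), with overlap. Psmb5, which carries the chymotrypsin-like site, went the other way, from 426, 572 and 645 as lowest, median and highest in WT to 236, 416 and 509.5 in KO (-0.52, SE 0.19, adjusted p 0.0462), but by 0.05 under median ratio scaling. The most abundant members were not called: Psmb6 had a WT median of 1397 and a KO median of 1789 (0.30, adjusted p 0.163), and Psmb3 1278 and 1402 (0.06, adjusted p 0.8). Under quantile normalization both differences were negative, -0.27 and -0.47.

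The median gene was lower in KO ICM, by -0.65, and less so under quantile normalization (-0.05) and median ratio scaling (-0.25). Core particle genes had a median change of 0.32, which is 0.98 above the median gene; all 16 lay above it and 13 above 0. Under quantile normalization that excess was gone (-0.04). Regulatory particle genes had a median of -0.90, 0.25 below the median gene, and E2 genes -0.17, 0.48 above it. The regulatory median lay below the core median under all 27 settings run, by 1.22 as reported here and by 0.60 to 1.34 over them. Some of these settings, such as the fit without robust estimation, cannot change the medians, and 14 left out 1 library each. The calls split differently with scaling, into 6 members higher and 12 lower under quantile normalization, and 17 higher and 7 lower under median ratio scaling, where 11 core particle genes were higher and 6 regulatory particle genes lower.

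These ICM calls rest on some libraries. Without WT ICM replicates 1, 3 and 4, whose trophectoderm marker sums were the highest, limma called 0 of 75 members (23 at an unadjusted p under 0.05) and 5 of all genes, while the regulatory median still lay 1.01 below the core median. Without KO ICM replicates 1, 4 and 6 it called 8 members, all lower and all in the regulatory particle, and 405 genes. With a covariate for detected genes (the number at 1 FPKM or more in each library) it called 0 members (4 unadjusted) and 0 of all genes (314 unadjusted). With 1 library left out, the call was lost in 10 of 14 fits for Ube2h (adjusted p up to 0.0956), 9 for Psmb5, 7 for Ube2v1, 5 each for Psmd7 and Ube2a, 4 for Psmd6 and 2 for Psmc3. The fits without WT replicate 1 and without WT replicate 4 were among these for all 7 genes. Leaving out 3 of 7 WT libraries also leaves fewer to test with, and no other 3 WT libraries were left out together. Left out alone, WT replicates 1, 3 and 4 gave 17, 23 and 17 called members. The other WT replicates, 2, 5, 6 and 7, gave 23, 23, 21 and 20. The part of trophectoderm markers and detected genes in the result was not tested beyond these values.

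**Figure D3:**
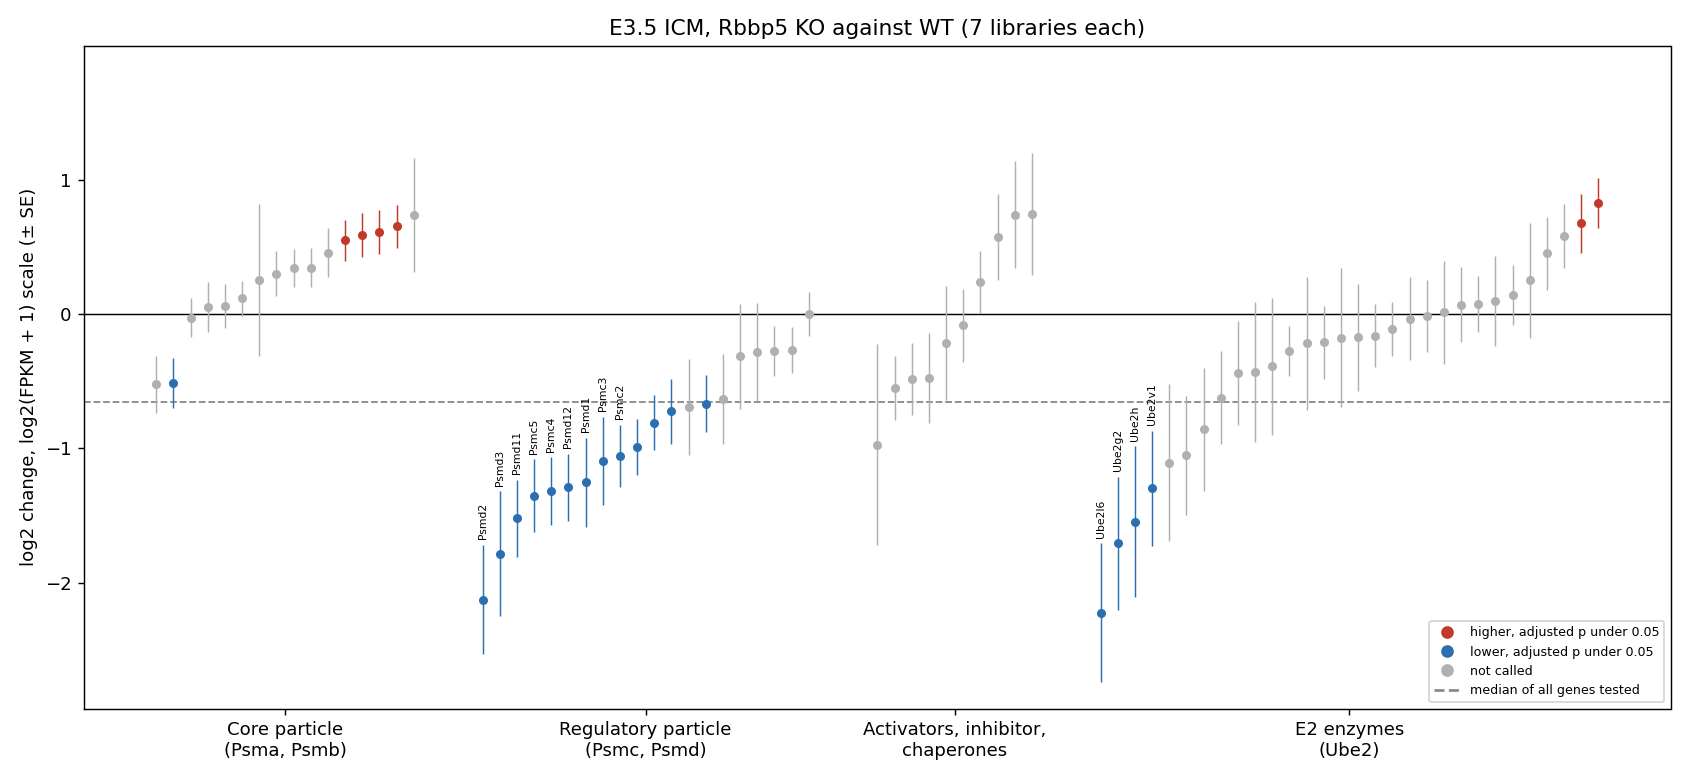
Log2 change in KO against WT ICM (7 libraries each) for the 76 members tested, by functional group, on a scale of differences of log2(FPKM + 1). Points are fitted changes, bars are standard errors, red and blue mark members called higher and lower, and the dashed line is the median of all genes at -0.65. Called members that changed by 1 or more in either direction are labelled. Of 20 regulatory particle genes 13 are called lower, and all 16 core particle genes lie above the dashed line.

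Among the 10 activators, inhibitor and chaperones none was called by limma, with 1 at an unadjusted p under 0.05. Psme1 was at 30.2, 43.1 and 48.9 in WT ICM and 18.0, 40.0 and 59.6 in KO ICM as lowest, median and highest, and Psme2 at 14.6, 33.9 and 79.9 and at 26.9, 60.3 and 157. The chaperones Psmg2 and Psmg4 differed by 0.24 (adjusted p 0.424) and 0.57 (adjusted p 0.171). All of these overlapped between the genotypes.

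Of 30 E2 genes, 2 were higher and 4 lower in KO ICM. Ube2l3, which loads ubiquitin onto HECT and RBR ligases (chr16:17152015-17201512), ran from 213 through 301 to 361 in WT and from 387 through 479 to 683 in KO, without overlap (0.83, SE 0.18, adjusted p 0.00528). Ube2a, which acts on histone H2B and in DNA repair (chrX:36874295-36884222), ran from 124 through 169 to 287 and from 206 through 225 to 429 (0.68, adjusted p 0.0299). The lower genes stood at lower levels. Ube2l6 ran from 5.20 through 9.56 to 20.5 in WT and from 0 through 0.924 to 8.41 in KO (-2.22, SE 0.52, adjusted p 0.00654). Ube2h, which works with the CTLH ligase (chr6:30211289-30304539), ran from 15.8 through 26.9 to 33.7 and from 0.0394 through 12.2 to 21.7 (-1.55, adjusted p 0.0468), and its call was lost in 18 of 26 settings. Ube2v1, a partner of Ube2n that has no active site of its own, ran from 116 through 156 to 188 and from 12.7 through 102 to 131 (-1.30, adjusted p 0.0321). The groups overlapped for all 4 lower genes, the fourth being Ube2g2, at most 8.27 in any ICM library. Both Ube2h and Ube2v1 turned to 0.32 and 0.43 with the covariate for detected genes. Ube2c, the most abundant E2, had a WT median of 622 and a KO median of 858 (0.58, adjusted p 0.0695).

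At E5.5 Psme1, Psme2, its copy Psme2b-ps and Psmb10 were lower in KO libraries, and the E2 gene Ube2h was higher. The E2 gene Ube2l6 was also higher, but was tested only because of its KO level. Of 76 members tested, 7 were higher and 14 lower (27.6%), against 34.1% of 5956 genes, of which 15.6% were higher and 18.5% lower. Libraries of the genotypes did not overlap for 10 members higher and 19 lower, against 22.6% and 26.6% of all genes, 49.2% in all. The trophectoderm and epiblast markers given above moved with every one of these differences, so genotype and tissue cannot be told apart.

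Psme1 was at 98.9, 87.5 and 91.7 FPKM in WT and 12.4, 18.4 and 35.3 in KO (-2.14, SE 0.32, adjusted p 0.00109). Psme2 was at 227, 198 and 297 in WT and 23.2, 50.7 and 95.6 in KO (-2.27, SE 0.44, adjusted p 0.0056). Psmb10 was at 64.4, 44.5 and 59.2 in WT and 4.66, 13.7 and 23.3 in KO (-2.16, SE 0.47, adjusted p 0.00892). In all 3 genes every KO library lay below every WT library, and KO replicate 1 was the lowest and KO replicate 3 the highest of the KO libraries. Psme2b-ps was at 25.8, 24.1 and 28.0 in WT and 2.12, 4.71 and 9.32 in KO (-2.24, adjusted p 0.00216), in the same order as Psme2, of which it is a copy. Psmb9, the other interferon-inducible beta subunit, was at most 3.81 in these libraries and was not called (KO at 0.363, 0.471 and 2.14).

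The ordinary core and regulatory particle genes differed little. Of 17 core particle genes 2 were higher and 2 lower, with a median of -0.17, and of 20 regulatory particle genes 1 (the chaperone Psmd10) was higher and 2 lower, with a median of -0.02, against -0.07 over all genes. Psmb6 was at 833, 694 and 818 in WT and 996, 1073 and 1199 in KO (0.48, adjusted p 0.0237), and Psmb3 at 579, 489 and 539.5 and at 681, 704 and 715 (0.39, adjusted p 0.0438). Both were without overlap, but Psmb3 was not called when any 1 of the 6 libraries was left out (adjusted p 0.0596 to 0.160). Psma7, the most abundant core gene in WT E5.5, was at 1003, 811 and 997 and at 832, 704 and 793 (-0.27, adjusted p 0.172). The ATPase Psmc4 was the exception in size, at 372, 318 and 383 in WT and 109, 165 and 191 in KO (-1.23, SE 0.21, adjusted p 0.00184). Psmd13 was at 87.2, 74.7 and 78.6 and at 35.9, 28.1 and 51.3 (-1.08, SE 0.23, adjusted p 0.00522). Psmd10, an assembly chaperone of the base (chrX:140948425-140956711), was higher in KO, at 50.8, 48.5 and 51.3 against 30.004, 25.2 and 37.3 (0.70, SE 0.20, adjusted p 0.0207). The other ATPases were not called; Psmc1 differed by -0.16 (adjusted p 0.489) and Psmc5 by -0.41 (adjusted p 0.0763). The regulatory to core ratio of summed FPKM was 0.580, 0.637 and 0.644 in WT and 0.527, 0.607 and 0.566 in KO, with overlap.

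Among the rest of the proteasome genes, the inhibitor Psmf1 was at 23.3, 24.9 and 28.1 in WT and 42.8, 32.6 and 39.2 in KO (0.56, adjusted p 0.0471), and the chaperone Psmg3 at 55.3, 50.6 and 44.8 and at 27.0, 16.7 and 31.8 (-1.01, adjusted p 0.0102). Neither overlapped between the genotypes. Psmg1 did not overlap either but was not called (-0.41, adjusted p 0.1).

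Of 29 E2 genes, 3 were higher and 6 lower, counting Ube2l6, which passed the filter through its KO level alone. Ube2l6 was at 0.337, 0.222 and 0.0778 in WT and 7.50, 11.9 and 15.4 in KO (3.33, SE 0.31, adjusted p 5.58e-05). Ube2h was at 9.91, 8.31 and 14.3 in WT and 38.4, 37.6 and 42.5 in KO (1.80, SE 0.23, adjusted p 0.000401). Ube2a was at 75.2, 55.7 and 58.1 in WT and 361, 107 and 151 in KO (1.51, SE 0.39, adjusted p 0.0194). All 3 genes were higher in every KO library. The level of the X-linked Ube2a was highest in KO replicate 1, the library with the most Xist (7.99 against 0.246 to 0.717 in the others) and the least of 3 Y-linked genes (0.340 against 19.2 to 84.1), and without that library its change was 1.01 (adjusted p 0.00629). It was not called without WT replicate 2 (adjusted p 0.0656) or WT replicate 3 (adjusted p 0.0583).

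The lower E2 genes included Ube2d1, Ube2o, Ube2b, Ube2k and Ube2c. Ube2d1 was at 24.5, 24.0 and 28.2 in WT and 3.81, 5.80 and 9.46 in KO (-1.92, SE 0.29, adjusted p 0.000988). Ube2b, the autosomal twin of Ube2a, was at 75.9, 82.8 and 90.9 and at 48.2, 34.8 and 61.5 (-0.81, adjusted p 0.0181). Ube2a and Ube2b, whose proteins are close relatives, thus went in opposite directions at E5.5. Ube2k was at 149, 136 and 139 and at 91.9, 71.7 and 106 (-0.66, adjusted p 0.0183). Ube2d3, a close relative of Ube2d1, was at 238, 232 and 289 and at 189.9, 194 and 239 and was not called (adjusted p 0.205).

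**Figure D4:**
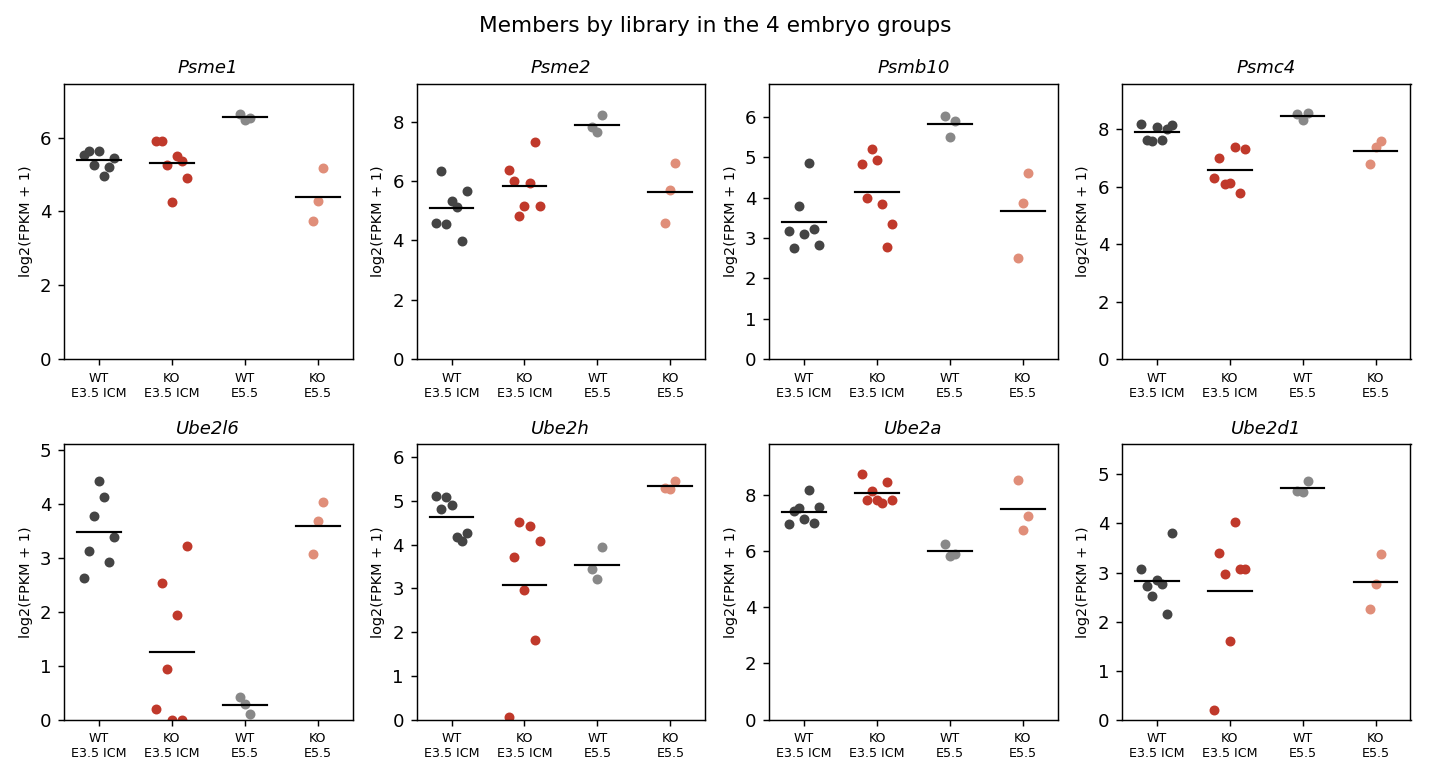
Levels of Psme1, Psme2, Psmb10, Psmc4, Ube2l6, Ube2h, Ube2a and Ube2d1 in every embryo library, as log2(FPKM + 1), in WT and KO ICM (7 each) and WT and KO E5.5 libraries (3 each); points are libraries and bars are means. Ube2l6 is at most 0.337 FPKM in WT E5.5 libraries and at 7.50 to 15.4 in KO E5.5, and Psme1 is at 87.5 to 98.9 and 12.4 to 35.3.

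Calls at E5.5 depended on the libraries and the fit. Leaving out 1 library gave 10 to 22 called members, with 10 without WT replicate 2, 12 without WT replicate 3 and 13 without WT replicate 1. Besides Psmb3, the call was lost for Psmf1 without any 1 library except KO replicate 2, for Psmb6 without any 1 WT library or KO replicate 3, and for Ube2k without any 1 WT library. It was lost for Ube2o without WT or KO replicate 1 or 2, for Psma8, Ube2b and Ube2c without WT replicate 2 or 3, for Psmd10 without WT replicate 1 or 2, and for Psmg3 without WT replicate 1. With all 4 embryo groups in a single fit, which shares the wider spread of the ICM, 8 members were called, 2 higher and 6 lower. Psme1, Psme2, Psme2b-ps, Psmb10 and Psmc4 were called under every setting run, with 1 library left out included. So was Ube2l6, but it passed the filter through its KO level alone, so its calls support no count. Under quantile normalization 9 members were higher and 16 lower, and under median ratio scaling 10 and 13.

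The difference of the KO effects at the 2 stages was tested as an interaction, E5.5 minus ICM, over all 20 embryo libraries. It uses the libraries of both comparisons above, so its values are not separate evidence. Of 76 members, 6 were higher and 5 lower (14.5%), against 14.0% of 5917 genes, of which 10.6% were higher and 3.38% lower, and the median over all genes was 0.56. Of 20 regulatory particle genes 4 were higher and 0 lower by limma, with 9 at an unadjusted p under 0.05, and of 16 core particle genes 2 were lower and 0 higher, with 3 unadjusted.

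Psmd2, Psmd11, Psmc2 and Psmd12, the regulatory particle genes called, had differences of 2.24 (SE 0.67, adjusted p 0.0269), 1.49 (adjusted p 0.0367), 1.43 (adjusted p 0.0129) and 1.29 (adjusted p 0.0361). Each was lower in KO ICM, and at E5.5 their KO changes were 0.11, -0.03, 0.38 and 0.00. With 1 of the 20 libraries left out, the call was lost in 6 fits for Psmd2 (those without an E5.5 library), 9 for Psmd11, 8 for Psmd12 and 0 for Psmc2. The last was called under all settings but median ratio scaling and the covariate. Psmc4 was lower in KO at both stages, and its difference was 0.09 (SE 0.43, adjusted p 0.913). Differences the other way were found for 3 of 5 activators and 2 core particle genes, with Psme2 at -3.01 (adjusted p 0.00708), Psme2b-ps at -2.99 (adjusted p 0.0118), Psmb10 at -2.90 (adjusted p 0.012) and Psme1 at -2.06 (adjusted p 0.00579). Psma2 differed by -0.93 (adjusted p 0.017). The calls of Psmb10 and Psme2b-ps were lost without KO E5.5 replicate 1, and that of Psma2 without WT E5.5 replicate 1 or 3. Ube2l6 and Ube2h, with negative changes in KO ICM and positive ones in KO E5.5, differed by 5.56 (adjusted p 0.000112) and 3.35 (adjusted p 0.0185, lost without WT E5.5 replicate 2). Ube2c differed by -1.16 and just missed the threshold (adjusted p 0.0511). Psme1 and Psme2 were called under every setting run. Ube2l6 was too, but it averaged only 0.212 FPKM in WT E5.5 libraries. Without WT ICM replicates 1, 3 and 4, 5 members were called, and with the covariate for detected genes also 5. Under median ratio scaling 3 members were higher and 8 lower.

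Other genes of the pathway were taken from lists by role. E1 enzymes and ubiquitin-like modifiers (19 of 21 in the table, 18 tested) had 3 higher and 5 lower in KO ICM, 1 and 4 in KO E5.5, and 6 and 5 at E5.5 against ICM in WT. The shares called were 44.4%, 27.8% and 61.1%, against 28.3%, 34.1% and 56.3% of all genes. In KO ICM Fau, which encodes a relative of ubiquitin fused to a ribosomal protein, and the modifier Nedd8 were both higher by 0.87. In KO E5.5 the lower genes included Sae1 (-0.89, adjusted p 0.00248) and Uba2 (-0.84), which together form the E1 for SUMO, and the modifier Sumo2 (-0.74). In WT the same E1 subunits were higher at E5.5, by 2.87 (adjusted p 1.15e-05) and 1.81. E2-like genes with other names (7 tested) had 0 higher and 1 lower in KO ICM, Cdc34 (-0.71, adjusted p 0.0438), none called by limma in KO E5.5 (1 unadjusted) and 1 lower in WT at E5.5. Their share called was 14.3% in KO ICM and 14.3% between stages, below that of all genes in each comparison.

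Partners of the proteasome (17 of 26 in the table) had 1 higher and 2 lower in KO ICM, 0 and 1 in KO E5.5, and 8 and 3 at E5.5 in WT. The shares called were 17.6%, 5.88% and 64.7%, against 28.3%, 34.1% and 56.3% of all genes. The lid subunit Shfm1 was higher in KO ICM, 1.14 (adjusted p 0.00303), against the direction of the other lid genes called, and the ubiquitin receptor Adrm1 was lower with them, -1.69 (adjusted p 0.00379). E3 ligases that work with the named E2 enzymes (29 of 42 in the table) had 2 higher and 8 lower in KO ICM, 2 and 3 in KO E5.5, and 15 and 6 at E5.5 in WT. Their shares called were 34.5%, 17.2% and 72.4%, against the same shares of all genes. Among genes that work in or with the anaphase-promoting complex, which Ube2c serves, Cdc20 was lower in KO ICM (-2.26, adjusted p 0.00383) and Cdc26 higher (0.97, adjusted p 0.00543), and Cdc26 was lower in KO E5.5 (-1.23, adjusted p 0.000674). The ligase Arih2 was lower in KO ICM by -2.24 (adjusted p 0.00454).

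The mean log2 level of 16 core particle genes was compared with every one of 5841 genes over the 20 embryo libraries, as a description across libraries that share stages and genotypes. Of the 16, each of which enters the mean, Psma5 was closest to it (Pearson r 0.964), Psmb5 was at 0.466 and Psmb10 ran against it (-0.174). The non-members most like it were Commd4 (Pearson r 0.953, Spearman rho 0.890), Tmem147 (0.945 and 0.947), Cox6b2 (0.939 and 0.875), Cox7a1 (0.933 and 0.842) and Elovl7 (0.926 and 0.889). Among members outside the core particle the closest was Ube2c (r 0.900), and the farthest were Ube2g2 (-0.851), Psmd3 (-0.779) and Ube2r2 (-0.760). Across genes, which are not independent replicates, the Spearman rho of gene span with the change in KO ICM was 0.012 over 75 members and -0.009 over all 5170 genes with a span. With the change in KO E5.5 it was 0.261 over 75 members and 0.111 over 5657 genes.

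In single E4.5 epiblast cells no test was made: the embryo of each cell is not named, and each genotype therefore counts as 1 sample. These columns may have been made separately from the embryo columns, so levels are not compared across them. KO cells had 3026 to 3628 genes at 1 FPKM or more and WT cells 3878 to 4682. All 3 KO cells lay above all 7 WT cells for 1 member and below them for 2, against 2.79% and 3.89% of 6062 genes. The median log2 ratio of means was -0.20 for the core particle, 0.18 for the regulatory particle and -0.15 for E2 genes, against -0.27 for all genes. The regulatory value was -0.35 without KO cell 3 and -0.17 by medians over cells, and the core value was 0.16 without KO cell 2, so neither direction held.

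The member above was Psmd14, the enzyme that removes ubiquitin chains, at 138, 168, 119, 110.2, 180.3, 99.7 and 110.4 in WT cells and 206, 214 and 227 in KO cells. The members below, chosen after their values were seen, were Ube2g2 and Ube2e3. Ube2g2 was at 3.72, 15.7, 0.108, 11.5, 22.9, 26.7 and 0.542 in WT cells and at 0.0936, 0 and 0 in KO cells, and Ube2e3 was listed at 0 in all 3 KO cells and at 0.0962 to 10.98 in WT cells. In each case the lowest WT cells were close to 0 as well. Psmb2 and Psma7 had lower means in KO, with log2 ratios of -0.75 and -0.73, but KO cell 3 stood far above the other KO cells, at 442 against 114 and 178 for Psmb2. Psmc4, lower in KO in both embryo comparisons, was at 191, 121 and 116 in KO cells, with a log2 ratio of means of -0.69. Ube2a had a ratio of 1.19, with KO cells at 80.1, 63.2 and 23.1. Ube2c had a ratio of -1.99, with WT cells from 24.6 to 617 and KO cells at 81.9, 69.9 and 0.229. Ube2t, an E2 of the Fanconi anaemia pathway, and Ube2m, an E2 for NEDD8, had ratios of -1.68 and 1.47.

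**Figure D5:**
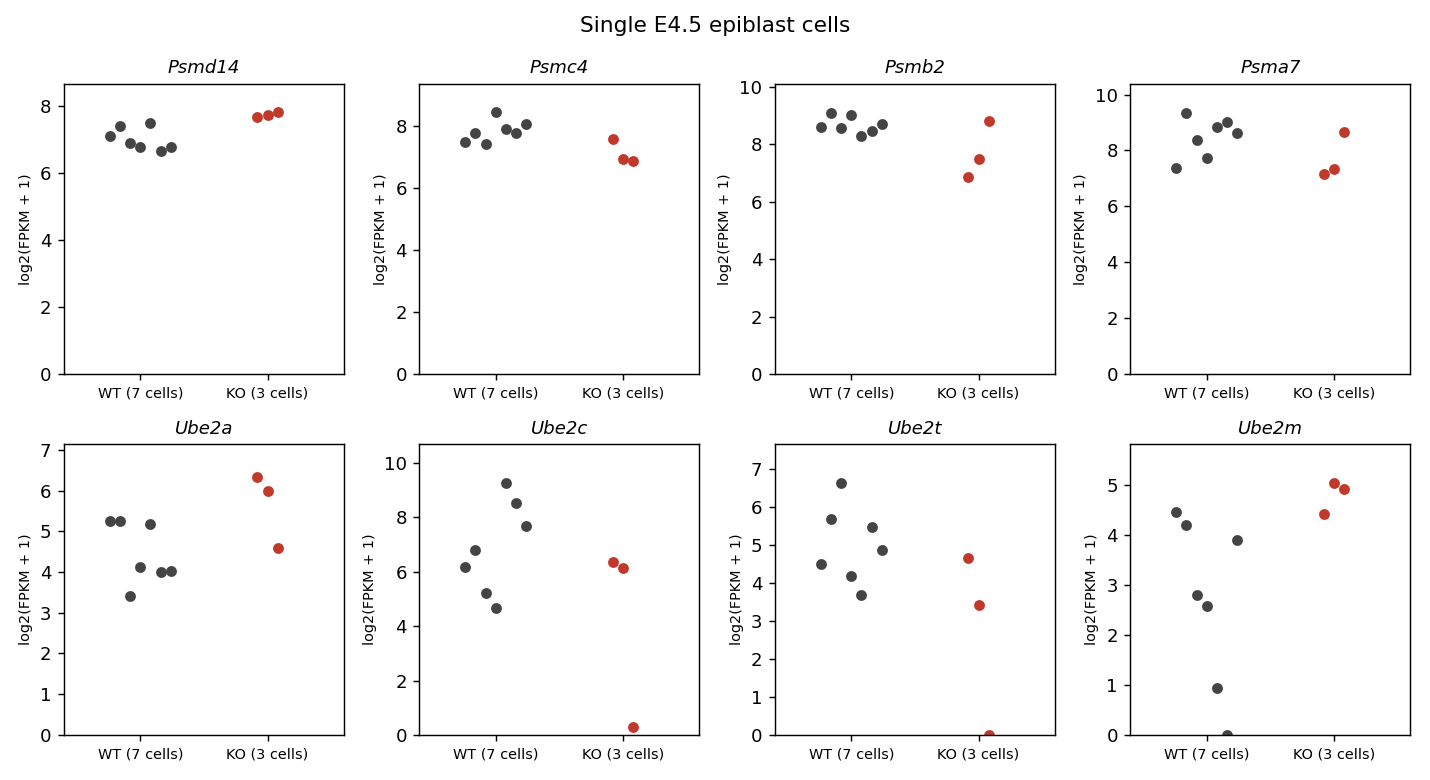
Levels of Psmd14, Psmc4, Psmb2, Psma7, Ube2a, Ube2c, Ube2t and Ube2m, as log2(FPKM + 1), in single E4.5 epiblast cells, 7 WT and 3 KO; points are cells and no test was made. Psmd14 is at 99.7 to 180.3 FPKM in WT cells and 206 to 227 in KO cells, and the other genes overlap between the genotypes.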

How the data were processed

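RNA libraries (33 of 46 samples) were used; the 7 H3K4me3, 2 ATAC and 4 methylome samples were not used here. The authors deposited FPKM values, 7186 lines long. Tools in the submitters' processing notes, given without their roles, are STAR 2.7.3, Trim Galore 0.6.4, HOMER 4.10.4, Bowtie2 2.3.5, Bismark and MACS2 2.2.6, with mm10 as the build. The sources used here do not say how strand, or reads shared by copies, were handled in counting. FPKM is a share of a library, so a rise of abundant genes lowers the rest, and depth is unknown, which leaves counting error unmeasured. Of the lines, 4 were left out because 2 names were repeated, leaving 7182 genes.

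Genes averaging 1 FPKM or more in the embryo libraries of a comparison were tested with limma (3.58.1, R 4.3.3; robust empirical Bayes with a trend) on the log2(FPKM + 1) scale. The procedure was also run on simulated data, the outcome of which is not given here. P values were adjusted by Benjamini-Hochberg over all genes and called under 0.05. The 4 comparisons were WT E5.5 against WT ICM, KO against WT at each stage, and the difference between the latter effects. Replicates are separate embryos, per the labels. Not tested for low level were Psma8 and Ube2nl in the ICM and in the difference, Ube2e2 and Ube2nl at E5.5, and Ube2nl across stages. Ube2nl, like Psme2b-ps, is a copy of another member.

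Named members were, per comparison and group, up to 6 called with the largest change and at least 10 FPKM in the higher group, and the 2 of highest level. For cells the rule took 4 members in each direction by ratio of means, at 20 FPKM or more. Others were named after their values were seen: Psmd3, Psmc1, Psmc2, Psmc6, Psmd4, Psmd6, Psmd7, Psme1, Psme2, Psmc3 and Ube2g2 in the ICM, Psmb9, Psma8, Ube2o and Ube2c at E5.5, Psma8, Psmb9 and Psmf1 across stages, and Psmc4 among the differences. Members and lists were chosen with earlier results of these data known. Transcript lengths were not used here, and gene span from RefSeq (GRCm38.p6, the mm10 build) replaced a planned check of transcript length. Alternatives were the pseudocount (0.1 and 5), no filter or one of 5 FPKM, quantile and median ratio scaling, no robust fit, a replicate block, detected genes as a covariate, all 4 groups in 1 fit, and leaving out libraries. Leaving out WT ICM replicates 1, 3 and 4 together was chosen after seeing the data. Results of some genes are not reported here.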

Additional observations from a re-analysis of the deposited data

Results flagged for a closer look

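Only members named by the rules above, and so picked by change or level, were screened for a value far from the others. They gave 130 sets of 7 libraries or cells, from WT ICM, KO ICM and WT E4.5 epiblast cells. By chance such a value stands in about 1 in 20 sets when values are normally spread, which FPKM values need not be. The sets also share libraries. Of the 130 sets 14 held such a value, and this number was not tested against chance. In WT ICM these were Psmb10 at 28.1 FPKM and Ube2a at 287 in replicate 5, Psme3 at 6.03 in replicate 4, Ube2d1 at 12.9 in replicate 7 and Ube2q2 at 29.5 in replicate 6. In KO ICM they were Psmb6 at 919 in replicate 3, Psmd3 at 9.39 in replicate 5, Psme2 at 157 in replicate 6, Psmg3, listed at 0, in replicate 1 and Psmg4 at 279 in replicate 4. Among WT E4.5 epiblast cells they were Psma4 at 92.0 and Psmg2 at 114 in cell 4, Psmb4 at 844 in cell 2 and Psmd3 at 147 in cell 3.

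The KO effect differed between E5.5 and the ICM for 11 members by the interaction term (limma, adjusted p under 0.05). On the log2 scale, E5.5 minus ICM, the differences were -2.06 for Psme1, -3.01 for Psme2, -2.99 for Psme2b-ps, -0.93 for Psma2 and -2.90 for Psmb10. They were 3.35 for Ube2h, 5.56 for Ube2l6, 1.43 for Psmc2, 1.49 for Psmd11, 1.29 for Psmd12 and 2.24 for Psmd2. The KO E5.5 libraries carry trophectoderm markers, so stage, tissue and genotype cannot be told apart in these differences.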

How the results depend on the processing

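In KO against WT ICM, 1540 genes and 24 members were called. All genes called numbered 680 under quantile normalization, 876 under median ratio scaling, 0 with the covariate for detected genes (314 at an unadjusted p under 0.05, limma), 405 without KO replicates 1, 4 and 6, and 5 without WT replicates 1, 3 and 4. The members numbered 0 (4 unadjusted), 8 and 0 (23 unadjusted) under the last 3 of these. At E5.5, all 4 embryo groups in 1 fit called 702 genes and 8 members. For the difference of effects, 520 genes were called with a pseudocount of 0.1, and 446 and 487 genes and 5 and 5 members with the covariate and without those WT replicates. Between WT stages the covariate gave 2143 genes and 31 members. Detected genes nearly separated the genotypes in the ICM and fully separated the WT stages, so covariate and group can hardly be told apart there.

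Leaving out 1 library gave 946 to 1875 genes and 17 to 26 members in KO ICM, 1205 to 2185 and 10 to 22 in KO E5.5, 458 to 1034 and 7 to 13 for the difference, and 2670 to 3435 and 45 to 60 between stages. In E4.5 cells, leaving out 1 cell moved the median log2 ratio from -0.55 to 0.16 for the core particle, -0.35 to 0.41 for the regulatory particle and -0.34 to -0.01 for E2 genes, and medians over cells gave -0.17 for the regulatory particle.

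Some directions reversed, among members not called. In the ICM these were Psmb6 (-0.27, quantile), Psmb3 (-0.47, quantile; -0.0612 without the 3 WT replicates; -0.0289 to 0.143 with 1 library left out, negative without WT replicate 4), Psmd14 (0.29, median ratio; 0.09, covariate) and Psmd8 (0.30; 0.0235). Called members that reversed were Psmb5 (0.0496; 0.0409), and, with the covariate, Ube2h (0.32), Ube2v1 (0.43) and Psmd7 (0.0203). For the difference they were Psmg1 (-0.35, quantile; -0.44, median ratio; -0.36, covariate; -0.11 without the 3 KO replicates), Psmb6 (-0.41), Psmb3 (-0.26) and Psmd14 (-0.38, each by median ratio; -0.0849, covariate). Between stages Psma7 gave 0.25 (quantile), 0.0441 without the 3 WT replicates and -0.0803 to 0.0980 with 1 library left out, positive without WT ICM replicate 2, 3, 4 or 7 or WT E5.5 replicate 2. The cause was not tested.

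A pairing of samples by replicate number was not established. Correlations of same-numbered libraries ran from -0.133 to 0.155 in the ICM, -0.022 to 0.118 at E5.5 and -0.004 to 0.089 between WT stages. Of these pairs, 2 of 7, 2 of 3 and 2 of 3 correlated best with their own number, and 3 pairs cannot settle the question. With the number as a block, 1221 genes and 20 members were called in KO ICM, 1950 and 18 in KO E5.5, 713 and 10 for the difference, and 2968 and 44 between stages. The E4.5 cells were not tested, so no paired fit was made for them.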

Other observations

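In the primitive endoderm at E4.5, where 1 WT and 2 KO cells were measured and no test was made, both KO cells lay above the WT cell for 33 of 74 members and below it for 20, against 29.7% and 33.3% of 4798 genes. Psme1 and Psme2 were at 56.6 and 32.6 FPKM in the WT cell, at 0.200 and 0.478 in KO cell 1 and at 0.485 and 0 in KO cell 2. Psmb9, the beta subunit that replaces Psmb6 in the immunoproteasome, was at 0.136 in the WT cell and at 137 and 133 in the KO cells. These members of the same interferon-inducible set thus went in opposite directions between the same cells. Ube2s, which extends ubiquitin chains for the anaphase-promoting complex, was at 34.9 in the WT cell and listed at 0 in both KO cells. The ATPase Psmc3 was at 249.9 in the WT cell and at 547 and 619 in the KO cells, while Psmd14 was at 267 and at 62.0 and 104. The lone WT cell decides each of these differences, and markers moved with them. The summed FPKM of 12 primitive endoderm markers was 2724 in the WT cell and 725 and 1137 in the KO cells. That of 3 visceral endoderm markers was 856 against 0.0135 and 28.3, with Amn at 746 against at most 0.251. Their part in the differences was not tested.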
